A study of Mus musculus with 6 samples.

Results

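The 61 genes described here are the placental prolactins, the pregnancy-specific glycoproteins (Psg), the Ceacam genes and the placental cathepsins of the mouse. They were chosen by symbol from the 22558 gene entries of each deposited table, as every entry named Prl2 to Prl8 with a subfamily letter and number, Psg or Ceacam with a number, or one of Cts3, Cts6, Cts7, Cts8, Ctsj, Ctsm, Ctsq and Ctsr. They comprise 25 prolactin, 13 Psg, 15 Ceacam and 8 cathepsin genes. An entry that joined Prl2c3 and Prl2c4 under 1 name fell outside the rule, as did the pseudogene entries.

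Messenger RNA was sequenced from 6 cultures of mouse pluripotent cells, 1 library each. Embryonic stem cells (ESC) of strain 129Sv were labelled H2A.X KO, made with Cre, or Flox/Flox, which carry recombination sites around the undeleted gene. Reprogrammed cells (iPSC, induced pluripotent stem cells) of mixed 129Sv and C57 background came from fibroblasts of the peritoneum (PF) or the tail tip (TTF), with 1 line labelled 4N+ and 1 labelled 4N- from each. The labels carry the name H2A.X for the iPSC but give them no genotype. They do not say how Cre was delivered or whether a culture was 1 clone. From knowledge outside the labels, 4N+ and 4N- were read as success or failure in tetraploid complementation, in which cells placed in a tetraploid host embryo form the fetus while the host supplies most of the placenta. All cultures were at passage 25, grew on feeder cells with LIF, and were moved to gelatin before lysis to remove the feeders.

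The genes belong to families that expanded in rodents and work mainly in the placenta. Trophoblast cells, which descend from the outer layer of the blastocyst and are normally not made by ESC, secrete the placental prolactins in a stage-specific and cell-type-specific order. Trophoblast giant cells and spongiotrophoblast cells are their main sources. Psg proteins are secreted immunoglobulin-like molecules of the same layers, Ceacam proteins are their relatives, some anchored in the membrane of epithelial cells, and the placental cathepsins are cysteine proteases related to cathepsin L. Several Ceacam genes, such as Ceacam1, Ceacam16 and Ceacam20, are known from tissues other than the placenta.

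On mm9, the build of the deposited tables, 22 prolactin genes lay in one cluster on chromosome 13 between 27186058 and 28243464. The 3 proliferin genes Prl2c2, Prl2c4 and Prl2c5 lay apart, between 12883083 and 13284107 on the same chromosome. The 8 cathepsin genes lay between 61101639 and 61671487 of chromosome 13. All 13 Psg genes and 8 Ceacam genes shared one cluster on chromosome 7 between 17256680 and 19406940. The other 7 Ceacam genes lay farther along chromosome 7: Ceacam16, Ceacam19 and Ceacam20 between 20437446 and 20576460, Ceacam10, Ceacam1 and Ceacam2 between 25562223 and 26351436, and Ceacam18 from 50890109 to 50904664.

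The promoters of the 5 genes with the clearest signal on chromosome 13 are shown because all 5 genes were found in the tail tip iPSC, and Prl2a1, Prl2c5 and Ctsj also in the knockout ESC, while their promoters share sequence to very different degrees. Each line gives the 250 bases before the annotated start, 5′ to 3′ on the strand of the gene, from RefSeq on GRCm38.p6. Prl7d1 has 2 such windows, and only the first listed is shown and aligned. Capitals mark the letters TATATA and any of 4 GATA hexamers, which are the hexamer AGATAA, the hexamer AGATAG, the hexamer TGATAA and the hexamer TGATAG, each searched on both strands, so that a hexamer on the other strand reads as its reverse complement. The windows are chr13:27801405-27801654 (plus strand) for Prl2a1, chr13:13182466-13182715 (plus) for Prl2c5, chr13:27716738-27716987 (minus) for Prl7d1, chr13:28015962-28016211 (plus) for Prl4a1 and chr13:61005926-61006175 (minus) for Ctsj.
Prl2a1: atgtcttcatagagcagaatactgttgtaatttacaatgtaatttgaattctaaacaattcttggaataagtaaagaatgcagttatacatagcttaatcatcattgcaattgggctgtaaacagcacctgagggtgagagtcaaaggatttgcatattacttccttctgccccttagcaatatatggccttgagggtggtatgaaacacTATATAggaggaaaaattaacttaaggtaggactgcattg
Prl2c5: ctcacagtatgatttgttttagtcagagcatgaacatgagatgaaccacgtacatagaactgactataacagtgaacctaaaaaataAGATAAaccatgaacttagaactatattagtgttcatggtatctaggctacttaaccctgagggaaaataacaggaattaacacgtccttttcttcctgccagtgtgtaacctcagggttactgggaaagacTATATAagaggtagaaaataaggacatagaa
Prl7d1: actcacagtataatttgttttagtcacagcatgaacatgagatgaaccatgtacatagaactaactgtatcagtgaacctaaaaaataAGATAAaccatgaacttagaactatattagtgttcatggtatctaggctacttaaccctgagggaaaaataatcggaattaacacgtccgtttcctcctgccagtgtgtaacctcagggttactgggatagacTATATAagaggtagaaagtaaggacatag
Prl4a1: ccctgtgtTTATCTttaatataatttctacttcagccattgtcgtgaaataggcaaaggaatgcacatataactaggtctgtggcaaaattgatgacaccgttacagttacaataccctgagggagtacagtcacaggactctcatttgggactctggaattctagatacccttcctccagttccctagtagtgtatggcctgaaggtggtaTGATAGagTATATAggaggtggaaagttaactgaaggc
Ctsj: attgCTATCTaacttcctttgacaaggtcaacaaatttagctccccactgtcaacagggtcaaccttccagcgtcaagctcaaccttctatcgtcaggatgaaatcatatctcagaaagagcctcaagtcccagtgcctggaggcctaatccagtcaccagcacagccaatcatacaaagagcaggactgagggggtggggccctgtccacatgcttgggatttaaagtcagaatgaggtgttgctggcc

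The 4 prolactin windows each held TATATA once, with its first base 40 (Prl2a1), 31 (Prl2c5), 29 (Prl7d1) or 30 (Prl4a1) bases before the start. Ctsj held none. Prl2c5 and Prl7d1, which lie in different clusters, had 236 identical positions in 252 aligned columns (93.7%), whereas the other pairs among the 5 windows had between 45.4% and 55.2%. GATA hexamers stood 163 bases before the start in Prl2c5, 162 in Prl7d1, 242 and 38 in Prl4a1 and 246 in Ctsj, and Prl2a1 held none. Among the 51 members with a RefSeq window, TATATA was present in 17 of 20 prolactin genes (85%), in 1 of 8 cathepsin genes (12.5%) and in none of 10 Psg or 13 Ceacam genes. It was present in 6.19% of 27025 genes of all kinds. A GATA hexamer was present in 34 of the 51 members (66.7%), against 29.7% of all genes, with 70% for prolactin, 90% for Psg, 46.2% for Ceacam and 62.5% for cathepsin genes. Median GC content was 39.2% in the prolactin windows and 52.4% over all genes. The part of this composition in the motif shares was not tested. The motifs were chosen after the windows had been seen, and a match describes letters, not a bound site.

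Effective depth was 39059600 to 61181100 fragments per library, recovered from the step between low values of intronless receptor genes. The deposited values were read as FPKM, which are fragments normalised to transcript length and to depth. Of the 46 members listed above 0 in a library, 41 could be turned back into whole fragments, and Prl2c4, Prl7a1, Psg19, Ceacam1 and Ceacam2 could not. Of 102 member values tested, 100 came within 0.05 of a whole number. The transcript lengths behind these values were chosen to give whole numbers, so this is not an independent check. H2afx, the H2A.X gene, followed the labels, with 6.18 FPKM in knockout and 34.9 FPKM in Flox/Flox cells, and at 65.3 to 75.2 FPKM in the iPSC. The pluripotency markers Pou5f1 (166 to 454 FPKM) and Nanog (111 to 228 FPKM) were present in all 6 libraries.

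**Figure D1:**
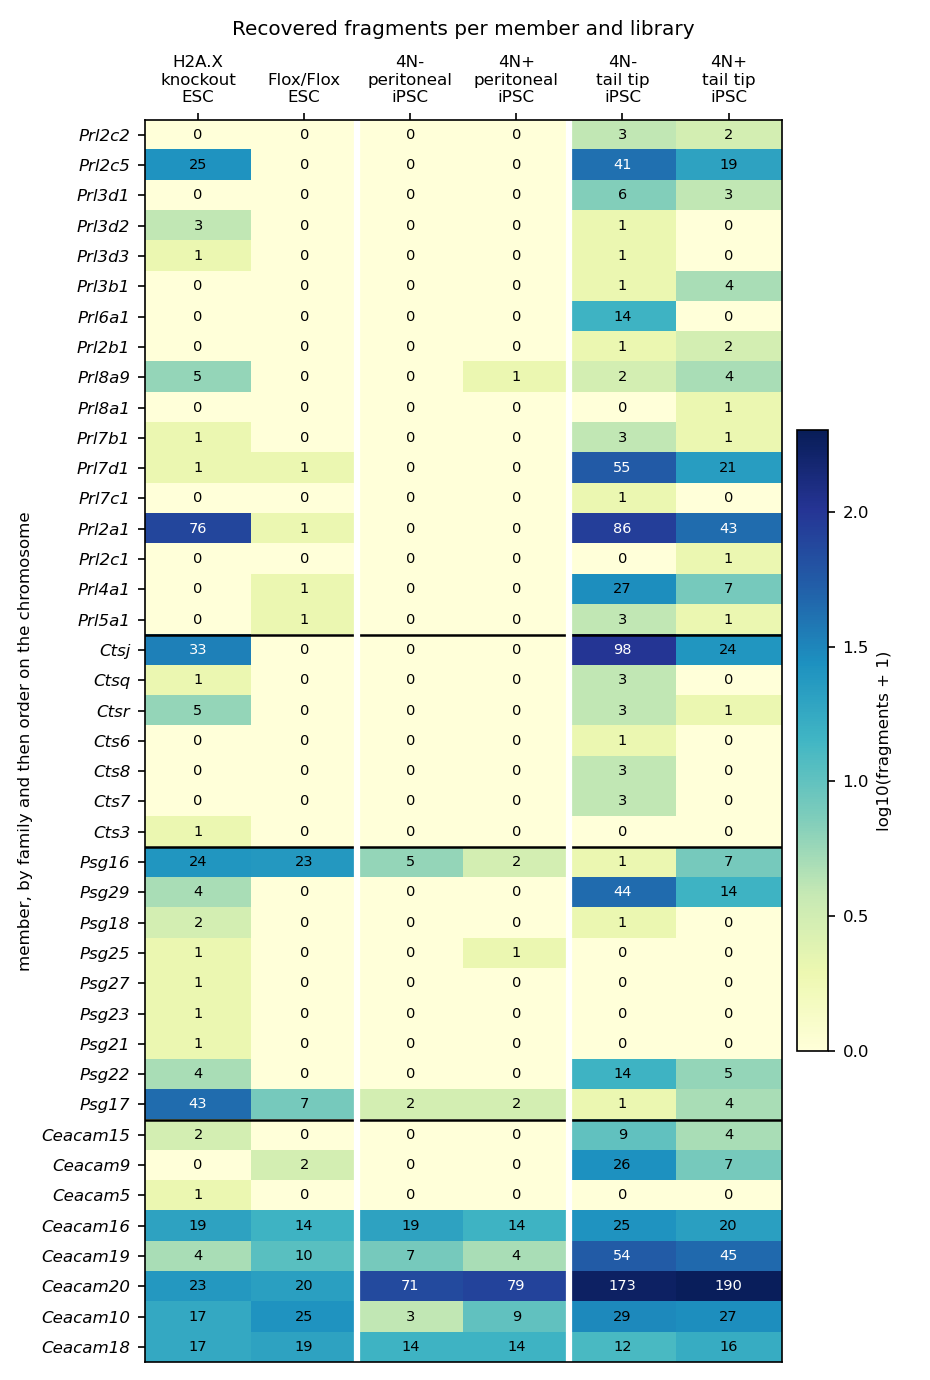
Recovered fragments of the 41 members with at least 1 fragment (rows, by family and then by chromosomal order) in the 6 libraries (columns), with colour on a log10(fragments + 1) scale. Prolactin and cathepsin fragments sit mainly in the knockout ESC and both tail tip lines. The Flox/Flox ESC hold 4 such fragments, and the peritoneal lines hold 1 between them.

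Only 6 members reached 1 FPKM in any library: Prl2a1, Prl2c5, Prl7d1, Ctsj, Ceacam20 and Ceacam1. A further 19 reached 0.1 FPKM. The rest were below it, including 15 that were listed at 0 throughout (Prl3a1, Prl3c1, Prl7a2, Prl8a2, Prl8a6, Prl8a8, Ctsm, Ceacam3, Ceacam11, Ceacam12, Ceacam13, Ceacam14, Psg20, Psg26 and Psg28). A count of 0 allows up to 3 fragments, which for the members corresponded to between 0.00936 and 0.161 FPKM, depending on transcript length and depth. Each condition has 1 library in its table, so no difference below has a replicate check. The 95% intervals are exact Poisson intervals for a sum and exact conditional binomial (Clopper-Pearson) intervals for a ratio, and they cover counting error only. In bulk RNA, fewer cells of a type and less RNA per cell cannot be told apart.

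Prl2a1, a prolactin-like protein gene of the large cluster, was the most abundant prolactin. It stood at 2.92 FPKM in knockout and 0.0301 FPKM in Flox/Flox ESC, at 0 in both peritoneal lines, and at 2.11 (4N-) and 1.09 (4N+) FPKM for tail tip cells. These values were 76, 1, 0, 0, 86 and 43 fragments. The knockout ESC and both tail tip lines were thus high and the other 3 libraries were at or next to 0. Per effective depth, the knockout was 97.0-fold above Flox/Flox (95% interval 16.9 to 3881), and the tail tip 4N- line was 1.93-fold above its 4N+ counterpart (1.33 to 2.86). No other annotated gene matched Prl2a1 at 95% identity or more over at least 50% of its transcript, the limit used here for a near-identical copy.

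Prl2c5, a proliferin gene of the separate cluster and a member of a family of placental growth and angiogenic factors, followed the same libraries. It stood at 1.31 FPKM in the knockout, was listed at 0 in the Flox/Flox and both peritoneal libraries, and reached 1.37 (4N-) and 0.655 (4N+) FPKM for tail tip cells. In fragments this was 25, 0, 0, 0, 41 and 19. Set against the 3 fragments that a count of 0 allows, the knockout stood 10.6-fold above Flox/Flox, and with the counting error of both libraries the exact 95% interval began at 8.03. The tail tip ratio was 2.09 (1.18 to 3.81). Prl2c5 is 96.4% identical to Prl2c3 over 68.9% of its transcript, so its fragments may be shared with its relatives. Prl2c2, another proliferin gene and 99.8% identical to Prl2c3 over 55.2%, had 3 fragments in the tail tip 4N- line, 2 in the 4N+ line and 0 elsewhere.

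Prl7d1, which encodes proliferin-related protein, an inhibitor of blood vessel growth, was almost absent from the ESC. It stood at 0.0323 FPKM in knockout and 0.0253 FPKM in Flox/Flox ESC, 1 fragment each, and was listed at 0 in both peritoneal lines. The tail tip lines held 1.13 (4N-) and 0.448 (4N+) FPKM, from 55 and 21 fragments, a ratio of 2.53 (1.51 to 4.41). Although its printed promoter window is 93.7% identical to that of Prl2c5, the 2 genes differed in the knockout ESC, with 1 fragment for Prl7d1 and 25 for Prl2c5. In the tail tip lines both were present.

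Prl4a1, which encodes prolactin-like protein A, had 0 fragments in the knockout, 1 in Flox/Flox, 0 in both peritoneal lines, 27 in the tail tip 4N- line (0.681 FPKM) and 7 in the 4N+ line (0.183 FPKM). The tail tip ratio was 3.73 (1.58 to 10.1). Prl6a1, which encodes prolactin-like protein B, was seen in 1 library only, the tail tip 4N- line, with 14 fragments (0.345 FPKM). The exact 95% interval of its ratio to the 4N+ line began at 3.21. Both genes, like Prl7d1, were therefore found in tail tip lines and not, beyond 1 fragment, in the knockout ESC.

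The placental lactogens, hormones that act on the prolactin receptor of the mother, were close to their detection limit. Prl3d1, an early lactogen of giant cells, had 6 fragments in the tail tip 4N- line (0.146 FPKM), 3 in the 4N+ line (0.0753 FPKM) and 0 elsewhere. Its near-identical copies Prl3d2 and Prl3d3 (98.5% identity) had 3 and 1 fragments in the knockout and 1 each in the tail tip 4N- line. Prl3b1, the later lactogen, had 1 fragment in the tail tip 4N- line and 4 in the 4N+ line. Prl8a9 had 5 fragments in the knockout, 0 in Flox/Flox, 0 and 1 in the peritoneal lines, and 2 (4N-) and 4 (4N+) in the tail tip lines. Prl7a1, whose fragments could not be recovered, stood at 0.272 FPKM in the knockout and at 0.108 (4N-) and 0.157 (4N+) FPKM for tail tip cells, and was listed at 0 in the other 3. Prl2b1, Prl2c1, Prl5a1, Prl7b1, Prl7c1 and Prl8a1 had at most 3 fragments in any library, and Prl2c4 stayed below 0.1 FPKM. The pituitary hormone gene Prl was listed at 0 in all 6 libraries, and Prlr, the receptor, stood between 0.0134 and 0.263 FPKM.

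Ctsj, the most abundant placental cathepsin, was listed at 0 in the Flox/Flox ESC and both peritoneal lines. It stood at 0.792 FPKM in the knockout (33 fragments), 1.501 FPKM in the tail tip 4N- line (98 fragments) and 0.380 FPKM in the 4N+ line (24 fragments). The exact 95% interval of the knockout ratio began at 10.8, and the tail tip ratio was 3.95 (2.51 to 6.45). Ctsr had 5 fragments in the knockout, 3 in the tail tip 4N- line and 1 in the 4N+ line, and Ctsq had 1, 3 and 0. Cts7 and Cts8 had 3 fragments each and Cts6 had 1, all in the tail tip 4N- line, and Cts3 had 1 in the knockout. All 6 cathepsins seen in the tail tip pair were thus higher in the 4N- line, but 5 of them rest on 3 fragments or fewer there.

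Psg genes differed in the library where they were highest. Psg29 had 4 fragments in the knockout, 0 in Flox/Flox and the peritoneal lines, 44 in the tail tip 4N- line (0.137 FPKM) and 14 in the 4N+ line (0.0452 FPKM), a tail tip ratio of 3.04 (1.63 to 6.004). Psg22, a Psg gene known from giant cells, had 4, 0, 0, 0, 14 and 5 fragments in the same order of libraries, with a tail tip ratio of 2.71 whose interval reached below 1 (0.921 to 9.60). Both were highest in the tail tip 4N- line. Psg22 stood at 0.0614 FPKM in the knockout and at 0.0507 FPKM in the tail tip 4N+ line. These values rest on 4 and 5 fragments, too few to rank them.

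Psg17, whose product binds the tetraspanin CD9, was highest in the knockout ESC. It had 43 fragments in the knockout (0.586 FPKM) and 7 in Flox/Flox (0.0747 FPKM), 2 in each peritoneal line, and 1 (4N-) and 4 (4N+) in the tail tip lines. The knockout ratio was 7.84 (3.497 to 20.7). Psg16, which is also transcribed in brain, had 24 fragments in the knockout and 23 in Flox/Flox, a ratio of 1.33 (0.720 to 2.47), and 5, 2, 1 and 7 in the 4 iPSC lines. Psg19 stood at 0.227 FPKM in the knockout and was listed at 0 in Flox/Flox. In the iPSC it was at most 0.0289 FPKM. Psg18, Psg21, Psg23, Psg25 and Psg27 had at most 2 fragments in any library, the highest number in each case in the knockout (for Psg25 equalled by 1 fragment in the peritoneal 4N+ line). Psg29 and Psg17 were thus high in different libraries although both lie in the same cluster.

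Most Ceacam genes of the Psg cluster were not seen. Inside the Psg cluster, Ceacam9, a trophoblast gene, had 0 fragments in the knockout, 2 in Flox/Flox, 0 in the peritoneal lines, 26 in the tail tip 4N- line (0.363 FPKM) and 7 in the 4N+ line (0.101 FPKM). Its tail tip ratio was 3.59 (1.52 to 9.80). Ceacam15 had 2 fragments in the knockout, 9 in the tail tip 4N- line and 4 in the 4N+ line. Ceacam5 had 1 fragment, in the knockout, and the other 5 Ceacam genes of the cluster were listed at 0 in all 6 libraries.

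The 7 Ceacam genes outside the cluster were found in every library. Ceacam20, known from the intestinal brush border, had 23 fragments in the knockout, 20 in Flox/Flox, 71 (4N-) and 79 (4N+) in the peritoneal lines, and 173 (4N-) and 190 (4N+) in the tail tip lines. Its levels were 0.219, 0.149, 0.594, 0.661, 1.05 and 1.19 FPKM in that order, higher in iPSC than in ESC with the limit that the tables may have been scaled separately. Within pairs it differed little, with a tail tip ratio of 0.880 (0.712 to 1.09) and a peritoneal ratio of 0.899 (0.643 to 1.25). On the log2(FPKM + 1) scale, the peritoneal ratio of Ceacam20 was -0.06 and became 0.11 after centring.

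Ceacam16, known from the tectorial membrane of the inner ear, had 14 to 25 fragments per library. Ceacam18 had 12 to 19 and Ceacam10 had 3 to 29, with its lowest numbers in the peritoneal lines (3 for 4N- and 9 for 4N+). Ceacam19 had 54 (4N-) and 45 (4N+) fragments in the tail tip lines and 4 to 10 in the other 4 libraries. Ceacam1, the best known adhesion receptor of the family, stood at 0.200 FPKM in the knockout, 0.478 FPKM in Flox/Flox, 0.575 (4N-) and 1.73 (4N+) FPKM in the peritoneal lines, and 1.03 (4N-) and 0.932 (4N+) FPKM for tail tip cells. Ceacam2, 98.8% identical to Ceacam1 over 51.9% of its transcript and placed at the same interval in the deposited tables, stood between 0.0373 and 0.139 FPKM. How fragments were divided between Ceacam1 and Ceacam2 is not known.

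**Figure D2:**
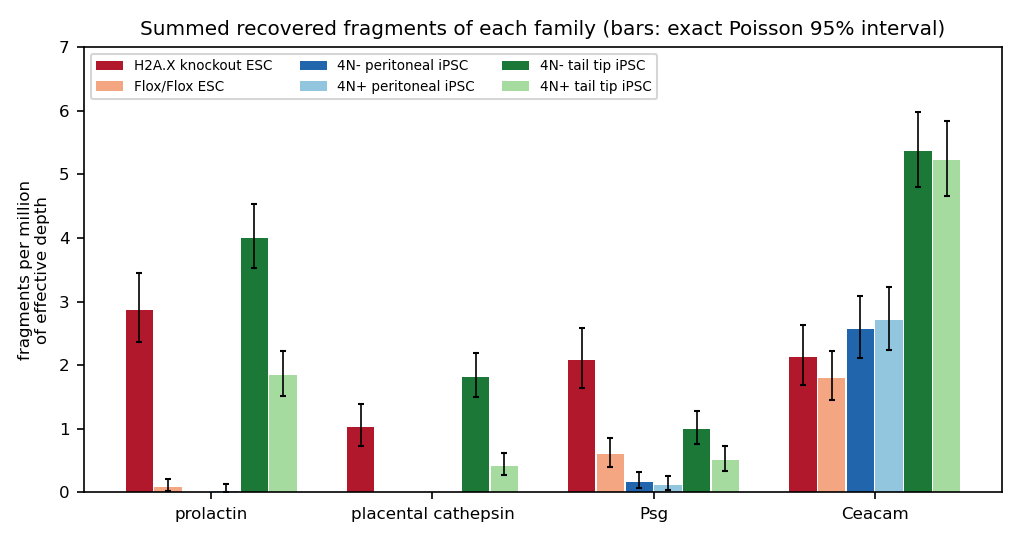
Summed recovered fragments of each family per 1000000 fragments of effective depth, with exact Poisson 95% intervals, 1 bar per library. The prolactin bars stand at 2.87 in the knockout ESC and, for tail tip cells, at 4.01 (4N-) and 1.84 (4N+), while the Ceacam bars of each pair overlap in their intervals.

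The ESC comparison asked how these genes differ where H2A.X is deleted. Prolactin fragments summed to 112 in the knockout and 4 in Flox/Flox, a ratio of 35.7 (13.6 to 134), and without Prl2a1 to 36 and 3. Cathepsin fragments summed to 40 and 0, and Psg fragments to 81 and 30 (ratio 3.45, 2.24 to 5.43), or 38 and 23 without Psg17. Ceacam fragments were level at 83 and 90, a ratio of 1.18 (0.863 to 1.60). These sums leave out the 5 members that could not be recovered.

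On the log2(FPKM + 1) scale, 2 members reached 1 FPKM in an ESC library, Prl2a1 (1.93) and Prl2c5 (1.21), and both exceeded 2-fold, with the knockout higher. The share of all 12086 measured entries that did so was 7.49%. Prl2a1 and Prl2c5 entered through the knockout library, which fixes their direction. Of the 34 members above 0 in an ESC library, 28 were listed higher in the knockout (82.4%), against 58.7% of all entries above 0 and 76% of those under 3 FPKM in both libraries, so the share is near that of other low genes. Among the 16 members whose higher library lay at 0.1 to 3 FPKM, 9 were at least 2-fold higher on plain FPKM (56.2%). The share among 6192 entries was 41.8%. This range was chosen after the values were seen. All 9 entered it through the knockout alone, which fixes their direction. The only member 2-fold lower was Ceacam1, against 4.78% of entries. With at least 10 fragments, 4 of 10 members had an interval above 1 (Prl2a1, Prl2c5, Ctsj and Psg17) and none below. Of 3526 entries recovered in the same way, with as many fragments and under 3 FPKM in both libraries, 51.4% had an interval above 1 and 9.39% below, so the members' share (40%) is no higher than that of other low genes. The authors' deposited table called Prl2a1 (q = 0.0112) and no other member, where it called 1.44% of the entries it marked as testable.

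**Figure D3:**
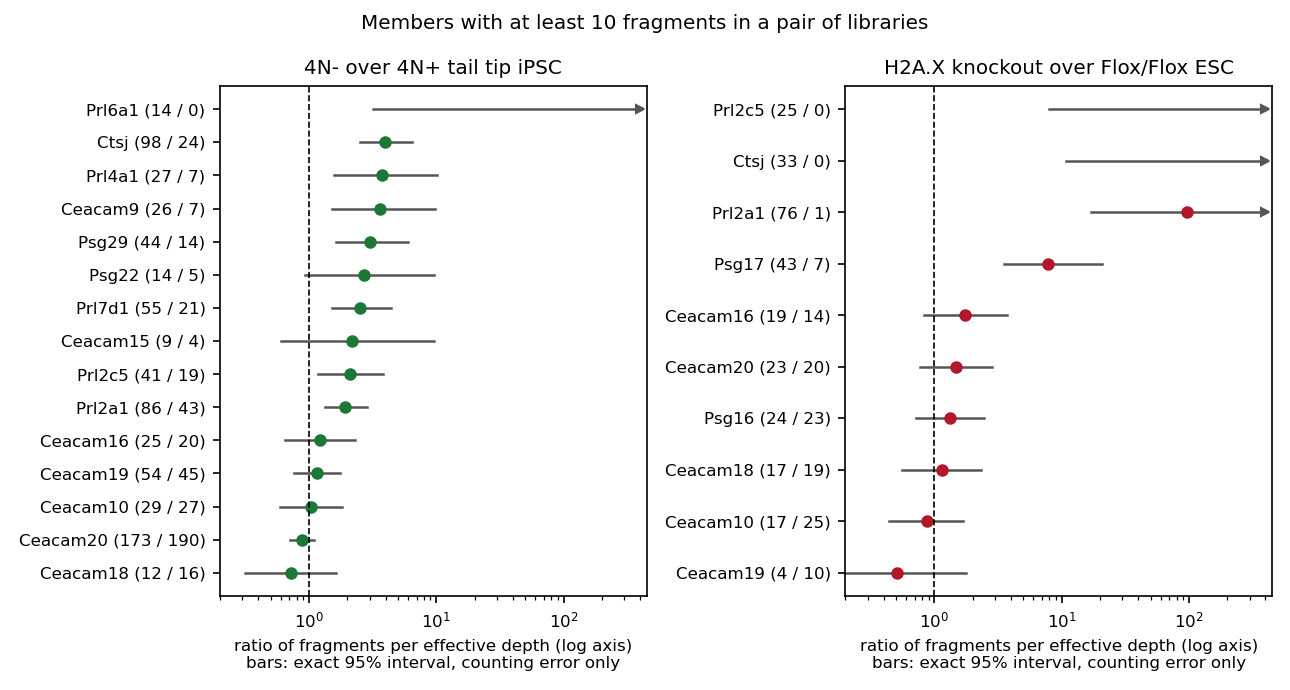
Ratio of fragments per effective depth, on a log axis, for members with at least 10 fragments in a pair of libraries, with fragment numbers in brackets and exact 95% intervals as bars. An arrow marks an interval that runs beyond the axis and a bar without a point a library at 0, and in the tail tip pair the interval of Ctsj runs from 2.51 to 6.45 and that of Ceacam20 from 0.712 to 1.09.

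In the tail tip pair, which set a 4N- line beside a 4N+ line, the prolactin, cathepsin and Psg families were all higher in the 4N- line. Prolactin fragments summed to 245 and 109, a ratio of 2.17 (1.73 to 2.75), and without Prl2a1 to 159 and 66 (2.33, 1.74 to 3.15). Cathepsin fragments summed to 111 and 25 (4.29, 2.76 to 6.92), mostly through Ctsj, with 13 and 1 without it. Psg fragments summed to 61 and 30 (1.97, 1.25 to 3.15), but without Psg29 to 17 and 16, and of the 6 Psg genes above 0 here 3 were listed higher and 3 lower. The Ceacam genes inside the Psg cluster summed to 35 and 11 (3.08, 1.53 to 6.72), or 9 and 4 without Ceacam9. The Ceacam family as a whole was level at 328 and 309 (1.03, 0.876 to 1.203).

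None of the 6 members that reached 1 FPKM in this pair was 2-fold different on the log2(FPKM + 1) scale, where 0.749% of 11354 entries were. That scale compresses genes near 1 FPKM. On plain FPKM, 9 of the 19 members at 0.1 to 3 FPKM were at least 2-fold higher in the 4N- line (47.4%), against 4.94% of 6108 entries in that range. They were Prl2c5, Prl4a1, Prl6a1, Prl7d1, Ctsj, Psg22, Psg29, Ceacam9 and Ceacam15. The range was chosen after the values were seen. Prl6a1, Psg22, Psg29 and Ceacam15 entered it through the 4N- line alone, which fixes their direction. The others were above 0.1 FPKM in both lines. Ceacam2 alone was 2-fold lower, against 3.19% of entries, and it entered the range through the 4N+ line alone. Of the 40 members above 0, 27 were listed higher in the 4N- line (67.5%), against 51% of all entries and 50.8% of those under 3 FPKM. Among 15 members with at least 10 fragments 13 were higher, 8 of them with an interval above 1: Prl2a1, Prl2c5, Prl4a1, Prl6a1, Prl7d1, Ctsj, Psg29 and Ceacam9 (53.3%). Of 4035 entries recovered in the same way, with as many fragments and under 3 FPKM, 51.9% were higher in the 4N- line, 10.6% had an interval above 1 and 10.7% below. The authors' deposited table called Ctsj (q = 0.000752) and Prl6a1 (q = 0.0401), where it called 0.301% of testable entries. Members of a family share sequence and place, so they are not independent of one another.

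In the peritoneal pair the families were almost absent. Both lines had 0 cathepsin fragments, and of 25 prolactin genes 24 were listed at 0 in both, the exception being 1 fragment of Prl8a9 in the 4N+ line. Of all 61 members 49 were listed at 0 in both lines, against 21% of all entries. The ESC pair had 27 such members (background 17.4%) and the tail tip lines 21 (18%). Psg fragments summed to 7 in the 4N- line and 5 in the 4N+ line, and Ceacam fragments to 114 and 120, a ratio of 0.950 (0.729 to 1.24). Of the 12 members above 0 here, 4 were listed higher and 5 lower in the 4N- line and 3 equal, against 38.1% higher and 59.1% lower of all entries above 0. Centring adds 0.17 to every log2(FPKM + 1) ratio of this pair, also where both lines are listed at 0. It therefore cannot settle the direction of members near 0.

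Ceacam1 was the single member measured at 1 FPKM in the peritoneal pair. It was lower in the 4N- line by a log2 ratio of -0.79 but not 2-fold different, where 1.55% of 11606 entries were. Among 6 members at 0.1 to 3 FPKM, Ceacam1 and Ceacam10 were at least 2-fold lower on plain FPKM (8.9% of 5806 entries were). Ceacam2 was at least 2-fold higher (9.66% were). Ceacam10 entered that range through the 4N+ line alone and Ceacam2 through the 4N- line alone, which fixes their direction. None of the 5 members with at least 10 fragments had an interval above or below 1, against 16.7% and 18.4% of 3491 entries. The authors' deposited table called no member here and 0.537% of testable entries. Because 0 fragments of most members were counted in this pair, whether its 4N- to 4N+ difference departs from that of the tail tip pair was not detectable at this depth.

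A limma fit over the 4 iPSC libraries, with the parental cells as a block, tested the 4N- and 4N+ labels across both pairs. It called 14 of 11985 genes (0.117%) at an adjusted p below 0.05, and none of the 6 members tested, nor any at an unadjusted p below 0.05. Ctsj had a difference of 0.43 (SE 0.24) on the log2(FPKM + 1) scale, Prl2a1 of 0.29 (SE 0.21), Prl7d1 of 0.28 (SE 0.22) and Prl2c5 of 0.26 (SE 0.22). Ceacam1 had -0.36 (SE 0.22) and Ceacam20 -0.08 (SE 0.18). The limma adjusted p was 0.9991 for each of the 6. The labels do not say whether the lines came from separate animals, so p measures only the spread between these lines. For the 4 prolactin and cathepsin genes the peritoneal pair enters with 0 in both lines, and the tail tip lines are the 1 source of the difference.

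**Figure D4:**
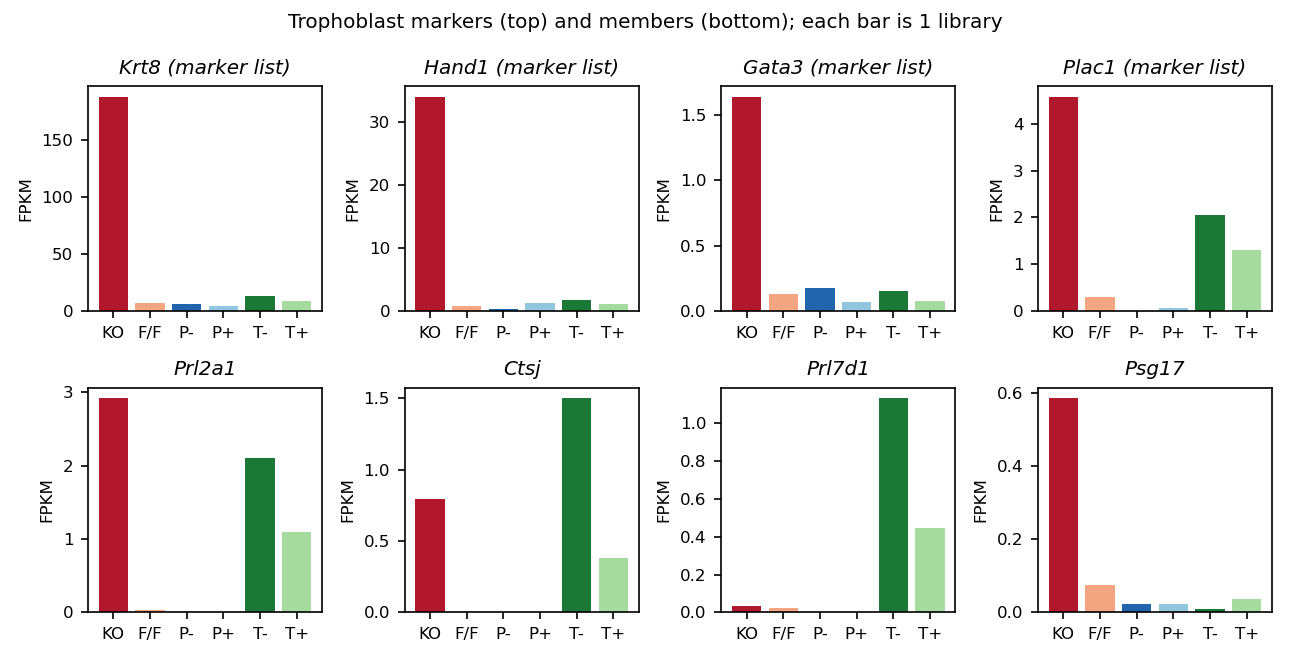
FPKM of 4 trophoblast markers (top) and 4 members (bottom) in the 6 libraries (KO, knockout ESC, F/F, Flox/Flox ESC, P and T, peritoneal and tail tip lines, with - and + for 4N- and 4N+), 1 bar per library and a separate axis from 0 in each panel. Hand1 and Krt8 stand far higher in the knockout than in any iPSC line, whereas Prl2a1 and Ctsj reach similar or higher levels in the tail tip 4N- line. The ESC and iPSC pairs may have been scaled separately.

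Markers of the cell types that make these proteins moved with the members in part. In the knockout ESC, 4 of 7 measured trophoblast stem and trophectoderm genes, 6 of 9 giant cell genes and 3 of 6 spongiotrophoblast genes stood 2-fold or more above Flox/Flox, against 0 of 6 syncytiotrophoblast and labyrinth genes, and none was 2-fold lower (background 7.49% higher and 3.72% lower). The 4 trophectoderm genes were Gata3 and the epithelial keratins Krt7, Krt8 and Krt18. The trophoblast stem factor Eomes stood at 1.79 against 2.65 FPKM. Below 1 FPKM, Cdx2 of the same list stood at 0.765 against 0.0930 FPKM, and Elf5 at 0.0382 against 0.0199 FPKM. The giant cell list summed to 533 FPKM against 95.2 FPKM, with the giant cell factor Hand1 at 34.0 against 0.829 FPKM. Most of the knockout sum came from Rhox6 (247 FPKM) and Rhox9 (149 FPKM), so it does not describe the whole list. Of the same list, Adm was lower in the knockout (7.85 against 13.5 FPKM) and Bhlhe40 nearly level (32.31 against 33.04 FPKM). Of the placenta-wide list 6 of 8 were higher, with the serpin Serpinb9e at 8.89 against 0.0467 FPKM, and 1, Plac8, was lower. Among the genes counted as higher, Gata3, Hand1, Gata2, Plac1, Flt1, Sct, Serpinb9e and Serpinb9g reached 1 FPKM in the knockout alone, which fixes their direction. Tpbpa, the defining spongiotrophoblast gene, reached only 0.241 FPKM against 0.0172 FPKM, and Tpbpb was listed at 0 in all 6 libraries. Hand1 stood at 1.71 FPKM in the tail tip 4N- line, where Prl2a1 was at 2.11 FPKM, against 2.92 FPKM of Prl2a1 in the knockout. The ESC and tail tip pairs may have been scaled separately.

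No gene of the trophoblast lists was 2-fold different on the log2(FPKM + 1) scale in the tail tip pair. This scale compresses genes near 1 FPKM. On it, the median log2 ratio of measured genes, 4N- over 4N+, was 0.352 for the trophectoderm list and 0.169 for giant cells. It was 0.208 for the spongiotrophoblast, -0.0924 for the syncytiotrophoblast and 0.32 for the placenta-wide list. On plain FPKM, Gcm1 (0.322 for 4N-, 0.148 for 4N+) and Serpinb9g (0.361 and 0.177) passed 2-fold. Rtl1 did so in the other direction (0.0252 and 0.223). The trophectoderm list summed to 67.9 (4N-) and 53.7 (4N+) FPKM and the giant cell list to 76.5 and 74.3 FPKM. Some trophoblast markers were low in the peritoneal lines and others were not. Plac1 stood at 2.06 (4N-) and 1.31 (4N+) FPKM in tail tip lines and at 0 and 0.0520 FPKM in the peritoneal pair. Serpinb9e stood at 0.895 and 0.551 FPKM and was listed at 0 in both peritoneal lines, and Tpbpa stood at 0.308 and 0.203 FPKM and was listed at 0 there too. These 3 genes are named because they were low in the peritoneal lines. Hand1, in contrast, stood at 1.30 FPKM in the peritoneal 4N+ line, above its 1.15 FPKM in the tail tip 4N+ line. Gata2 read 0.541 (4N-) and 0.371 (4N+) FPKM in peritoneal lines, beside 0.662 and 0.428 FPKM in their tail tip counterparts. The homeobox gene Rhox6 stood at 1.57 and 5.08 FPKM and Krt8 at 6.08 and 4.43 FPKM in the peritoneal pair. Not all trophoblast markers were thus near 0 where the prolactins were.

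Markers of other cell types were also set beside the members. In the knockout ESC, fibroblast genes (4 of 4 measured), macrophage genes (3 of 3) and extraembryonic endoderm genes (4 of 6) were at least 2-fold higher. So were 4 of 9 lysosomal cathepsins outside the placental cluster, such as Ctsb at 49.4 against 14.8 FPKM. The share of all measured entries was 7.49%. S100a4, Acta2, Fbln2, Csf1r, Cd74, Gata4 and Ctsh of these lists reached 1 FPKM in the knockout alone, which fixes their direction. The macrophage genes were Csf1r, Cd68 and Cd74, while the defining markers of that list were near 0 in the knockout, with Ptprc at 0.0406, Lyz2 at 0.0900 and Emr1 at 0.00842 FPKM. The 4 endoderm genes were Gata4 (2.29 against 0.598 FPKM), Col4a1 (45.0 against 3.33 FPKM), Col4a2 (29.3 against 1.77 FPKM) and Sparc (247 against 60.2 FPKM). Of the same list, Afp stood at 0.0136 FPKM in the knockout and Ttr was listed at 0. The fibroblast list summed to 14.7 against 3.84 FPKM there, with the defining collagen Col1a1 at 0.291 FPKM. For the tail tip lines it summed to 11.4 (4N-) and 9.88 FPKM (4N+), and the pluripotency list to 964 and 970 FPKM. In the ESC pair the pluripotency list was lower in the knockout, at 388 against 611 FPKM, with a median log2 ratio of -0.59 over its 6 genes and Sox2 alone 2-fold lower (48.5 against 142 FPKM). In the peritoneal pair, 6 of 8 measured fibroblast genes were 2-fold lower in the 4N- line (background 0.974%). Of these, Col1a1, Col1a2, Postn, S100a4 and Acta2 reached 1 FPKM in the 4N+ line alone, which fixes their direction. The list summed to 9.45 (4N-) and 72.4 (4N+) FPKM, while prolactin and cathepsin fragments were at 0 or 1 in each line. The Y-linked gene Eif2s3y also differed in the tail tip pair (25.3 FPKM for 4N-, 2.46 FPKM for 4N+). It was lower in the other libraries, at 0.115 (4N-) and 0.0577 (4N+) FPKM in the peritoneal lines, 0.655 FPKM in the knockout and 0.167 FPKM in Flox/Flox. The part of these genes in the differences of the members was not tested.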

How the data were processed

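Messenger RNA of 6 cultures was sequenced, 1 library each, and the authors deposited 3 tables of 2 libraries over the same 22558 entries. Reads went through CASAVA and TopHat2 on mm9, per the submitters' processing notes. For versions, the quantifying program and strand use the status is: not given in the sources used here. The library values were taken as FPKM as deposited by the authors, from their range and layout. Each table also holds the authors' call with its p-value, q-value, log2 fold change and test statistic, per the file headers. Of these, p-values (for Ceacam1 only), q-values and calls are printed as the authors'.

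The members, the marker lists and the tests were chosen with earlier results of these data known. Named members are all that reached 1 FPKM, plus others above 0.1 FPKM, and those with fewer fragments where a family is listed out, which were named after their values were seen. Fragments were recovered as FPKM times effective depth times transcript length less 204 bases. Depth was fitted to intronless receptor genes, of whose values 98.3% to 100% came out whole within 0.05 fragments. For 29 members the length came from the common step of several libraries near an annotated length (within 150 bases), and for 12, seen in 1 library, from the annotation (GENCODE on GRCm38). An integer multiple of a step cannot be told apart from the step. The same recovery was applied to all entries, to give the share of low genes whose ratio interval lay above or below 1. No count test was run. Because 12 members have a near-identical copy, their values are uncertain.

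Ratios were taken within a table, as log2(FPKM + 1), for entries at 1 FPKM or more in a library, and as ratios of fragments. For the iPSC, limma 3.58.1 was run in R 4.3.3 over 4 libraries (trend, parental cells as a block, Benjamini-Hochberg adjustment), with 1 residual degree of freedom, after a test on simulated data. The pairing comes from the shared table and parental cell type. Replicates across pairs are lines from different parental cells. Nearest copies were found with blastn 2.17.0. Alternatives were a pseudocount of 0.1, no expression filter, a minimum of 5 FPKM, centring on genes at 5 FPKM or more, no block and each library left out. Synb and Plac9a are not analysed here.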

Additional observations from a re-analysis of the deposited data

Results flagged for a closer look

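Ceacam1 was lower in the 4N- line of the peritoneal pair and nearly level in the tail tip pair, and it is listed because the signs of the 2 ratios differ. Its 4N- over 4N+ log2 ratio on the log2(FPKM + 1) scale was -0.79 in the peritoneal pair and 0.0707 in the tail tip pair, with 1 library of each label per pair. The authors' deposited table gives it p = 0.0395 (q = 0.837) and p = 0.698 in these pairs. The difference between the pairs was not tested.

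The entry that joins Prl2c3 and Prl2c4, which the choice of members by symbol left out, had 0.198 FPKM in knockout and a listed 0 in Flox/Flox ESC. The peritoneal lines were listed at 0 (4N-) and 0.209 (4N+) FPKM, and the tail tip lines at 0.126 (4N-) and 0.0783 (4N+) FPKM. It was therefore the 1 proliferin entry with a value above 0 in a peritoneal line, apart from any fragments divided among near-identical copies.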

How the results depend on the processing

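The number of members at least 2-fold higher in the knockout ESC was 2 and stayed 2 with a pseudocount of 0.1, with no expression filter and after centring. It became 0 at a minimum of 5 FPKM, which no member reached, and 4 when ratios of at least 10 recovered fragments were used. The number of members 2-fold different in the peritoneal pair was 0, and 1 both with a pseudocount of 0.1 and by fragments. In the tail tip pair it was 0, 2 with a pseudocount of 0.1 and 9 by fragments. The fragment ratios were added after the data had been seen. The limma count over all genes was 14. It was 3 with no replicate block, 0 with no expression filter, 17 with a pseudocount of 0.1, 11 after centring and 8 to 22 when each library was left out in turn with no block, where the lone sample of a label is assumed to vary like the others. No member was called in any of these fits. The cause was not tested. Of 28 alternative values for single members, 22 kept their side of the 2-fold limit and their sign, 5 passed 2-fold, and Ceacam20 in the peritoneal pair changed sign. Those that passed were Ctsj in the ESC (3.16 with a pseudocount of 0.1 and 1.05 after centring), and, with a pseudocount of 0.1, Ctsj (1.74) and Prl7d1 (1.17) in the tail tip pair and Ceacam1 (-1.44) in the peritoneal pair. Depth limits every member below about 3 fragments, where presence and absence cannot be told apart.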
